A study of Mus musculus with 22 samples.

Results

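The matrix-degrading metalloproteinases of epididymal white fat and their inhibitors were described here across 22 mice: the matrix metalloproteinases (Mmp), the ADAMTS proteinases (Adamts), the ADAMTS-like proteins (Adamtsl) and the tissue inhibitors of metalloproteinases (Timp1 to Timp4). Genes were taken by symbol from all biological spots of the array, whatever their values. The rule found 51 genes, carried by 74 probes on 92 spots, of which 27 genes could be tested beside 16577 genes tested in all. The hypoxia group comprised 10 males of the inbred strain C57BL/6JOlaHsd, kept at 12% oxygen for 6 hours. The normoxia group was 12 males of the same strain kept at 20.9% oxygen for the same 6 hours. All mice arrived at 10 weeks of age, lived singly and were fasted for the exposure. For 3 weeks their feed drew 10% of its energy from fat, and for the next 6 weeks 40%. The protocol text also names low-fat feeding without saying which mice received it, so diet was not modelled. The series text calls the mice of a group biological replicates.

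Fat cells sit in a basement membrane of type IV collagen and laminin within a mesh of fibrillar collagens and proteoglycans, and a fat pad must remodel this matrix as its cells enlarge and as vessels grow into it. MMPs are zinc endopeptidases made as inactive precursors, and between them they cleave collagens, elastin, laminins and many bound growth factors. ADAMTS proteinases are secreted relatives with thrombospondin repeats that trim proteoglycans and process procollagens, ADAMTS-like proteins share those repeats but lack the catalytic domain, and TIMPs occupy the active site of the proteinases. Each value below is the log2 ratio of the mouse's own Cy5-labelled RNA to a Cy3-labelled pool of all samples, so it compares mice for 1 probe and not 1 gene with another. In whole tissue, fewer cells of a type and less RNA per cell cannot be told apart.

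A compact stretch of chromosome 9 carries 10 of the 23 Mmp genes, and 7 of the 10 have a promoter with a short element that was not found in the promoters read for members outside the cluster. On mm9, the build of the array files, the probes of these genes ran from 7282762 to 7697700 in the order Mmp13, Mmp12, Mmp1b, Mmp3, Mmp1a, Mmp10, Mmp8, Mmp27, Mmp20 and Mmp7. RefSeq promoters of assembly GRCm38.p6 were at hand for 36 of the 51 genes. The letters TGAGTCA, read on both strands and known as a binding element of the AP-1 transcription factors, stood within 250 bases before the start of 7 of these 36 genes, against 4.46% of all 32851 promoters read the same way. All 7 lie in this cluster, whose 10 genes all had a promoter read, and Mmp8, Mmp27 and Mmp20 had no such letters. Mmp12 and Mmp7 have 2 listed promoters each, and 1 of the 2 held them. The stretches are shown because they are the sequence that these neighbouring genes share, with the element in capitals, each running 5′ to 3′ on the gene's strand and ending before its start.
Mmp13, chr9:7272463-7272501, plus strand: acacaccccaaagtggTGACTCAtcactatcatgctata
Mmp12, chr9:7347314-7347352, plus strand: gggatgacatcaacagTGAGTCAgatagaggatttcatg
Mmp1b, chr9:7388097-7388135, minus strand: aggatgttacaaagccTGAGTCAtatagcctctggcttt
Mmp3, chr9:7445760-7445798, plus strand: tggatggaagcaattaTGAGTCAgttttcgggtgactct
Mmp1a, chr9:7464052-7464090, plus strand: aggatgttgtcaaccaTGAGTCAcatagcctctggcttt
Mmp10, chr9:7502263-7502301, plus strand: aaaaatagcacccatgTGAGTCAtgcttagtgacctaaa
Mmp7, chr9:7692011-7692049, plus strand: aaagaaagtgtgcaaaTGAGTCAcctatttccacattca
The element began 35 to 93 bases before the start, in the same orientation in 6 of the 7 genes and reversed in Mmp13. Genes with this element differed in signal: Mmp12, Mmp3 and Mmp7 passed the detection limit of 10 arrays above background, and Mmp13, Mmp10, Mmp1a and Mmp1b did not. A pair of 5-letter strings are cores of the element bound by hypoxia-inducible factors. ACGTG, on either strand, stood in 7 of the 36 genes' promoters (Adamts3, Adamts17, Adamts18, Adamts20, Mmp7, Mmp14 and Timp1), against 16.6% of all promoters. GCGTG stood in 14 of the 36, against 28.2% of all promoters. No string overlapped the AP-1 letters in Mmp7, where ACGTG began 49 and TGAGTCA 63 bases before the start.

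The inhibitors were measured on all arrays, while the collagenases and the gelatinase Mmp9 were not. All 4 Timp genes were well above background in Cy5 on 22 of 22 arrays. So were the gelatinase Mmp2, the stromelysin Mmp11, Adamts1, Adamts2 and Adamts5. The other 18 tested genes were above background on 11 to 21 arrays. The 24 genes below that limit of 10 arrays included all 4 collagenases, namely Mmp1a on 0 arrays, Mmp13 on 2, and Mmp8, the neutrophil collagenase, and Mmp1b on 3 each. Mmp9, the gelatinase of neutrophils and macrophages, was above background on 1 array, while 5 of the 10 neutrophil markers (Mpo, Camp, Ngp, Ltf and Cxcr2) were below the limit and the other 5 were tested, Csf3r on 22 arrays, S100a8 and Elane on 21 each, Ly6g on 17 and S100a9 on 15. The remaining untested genes were Mmp10, Mmp15, Mmp16, Mmp20, Mmp21, Mmp24, Mmp25, Mmp27, Mmp28, Adamts3, Adamts6, Adamts7, Adamts13, Adamts16, Adamts17, Adamts18, Adamts19, Adamts20 and Adamtsl3, on 0 to 8 arrays each. Their signal was too low to be compared at this sensitivity, and 5 genes were above background on no array.

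**Figure D1:**
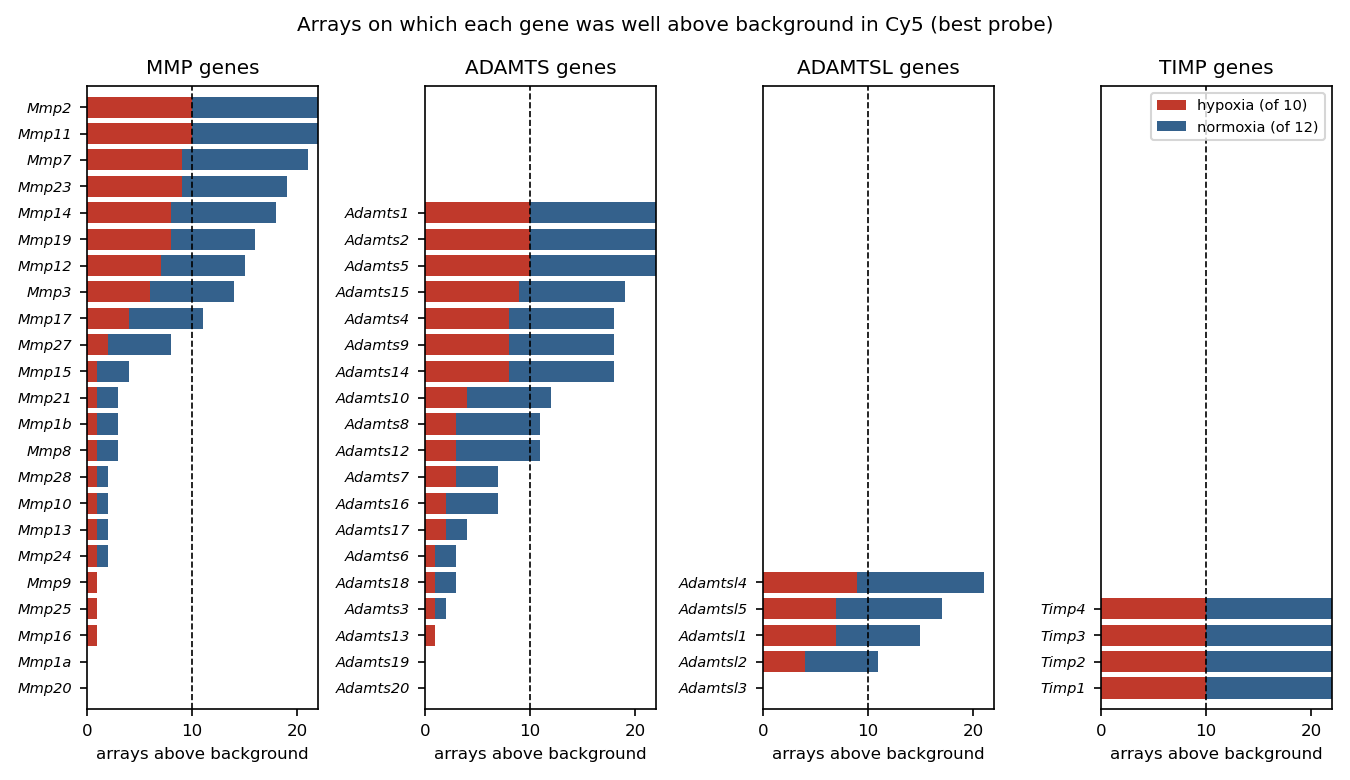
Arrays out of 22 on which the best probe of each of the 51 genes was well above background in Cy5, by family, with hypoxia arrays in red and normoxia arrays in blue; the dashed line marks the 10 arrays required for testing. All 4 TIMPs reach 22 arrays, and 14 of the 23 Mmp genes stay under the line.

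Detection differed between arrays. Cy5 was well above background for 15.6% to 18.9% of spots on the 4 arrays of slide 1 (2 of each group) and for 29.8% to 76.8% on the other 18. Of the 74 member probes, 12 to 58 were above background per hypoxia array (median 28.5) and 13 to 46 per normoxia array (median 33). All 10 markers of adipocytes, the cells that define the labelled tissue, passed the detection limit. Markers of 5 other compartments included genes that stood higher in hypoxia at an unadjusted p under 0.05 in limma: 4 of 9 tested smooth muscle genes, 3 of 3 red blood cell genes, 2 of 10 macrophage genes, 1 of 10 mesothelium genes (Gpm6a) and 1 of 10 endothelium genes (Kdr). Over all genes, 2.58% were higher at that level and 50.4% were above 0. All 10 mesothelium markers and 9 of 10 adipocyte markers were above 0, but 0 of 4 tested testis and epididymis markers were (median -0.53). The mean smooth muscle log2 ratio ran from -0.57 to 0.14 in hypoxia mice (median -0.11) and from -1.05 to 0.13 in normoxia mice (median -0.55). The mean red blood cell log2 ratio ran from -0.49 to 0.86 in hypoxia mice (median 0.12) and from -0.99 to 0.37 in normoxia mice (median -0.35). The mean mesothelium log2 ratio ran from -0.79 to 0.75 in hypoxia mice (median -0.25) and from -0.90 to 0.04 in normoxia mice (median -0.39). The mean endothelium log2 ratio ran from -0.29 to 0.02 in hypoxia mice (median -0.10) and from -0.34 to 0.07 in normoxia mice (median -0.20). Their part in the differences below was not tested.

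None of the 27 tested genes differed between hypoxia and normoxia after adjustment. The threshold was a Benjamini-Hochberg adjusted p of 0.05 in limma over all genes, which 0% of the 16577 passed. At an unadjusted p under 0.05, 4 members stood apart, against 5.3% of all genes: Adamts1, Timp4 and Adamtsl2 were higher (2.58% of all genes were higher at that level) and Mmp11 was lower (2.73% of all genes). The sign was more one-sided, with 21 of 27 members above 0, against 50.4% of all genes. The median member difference was 0.09, against 0.0011 over all genes, and single members lay between -0.25 and 0.35 on the log2 scale. The hypoxia and normoxia mice overlapped for all 27 genes. No share over all genes is given beside this count, so it does not set the members apart. Each member's 95% interval is given by the plot of differences, and the median standard error was 0.108 for members and 0.098 for all genes.

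**Figure D2:**
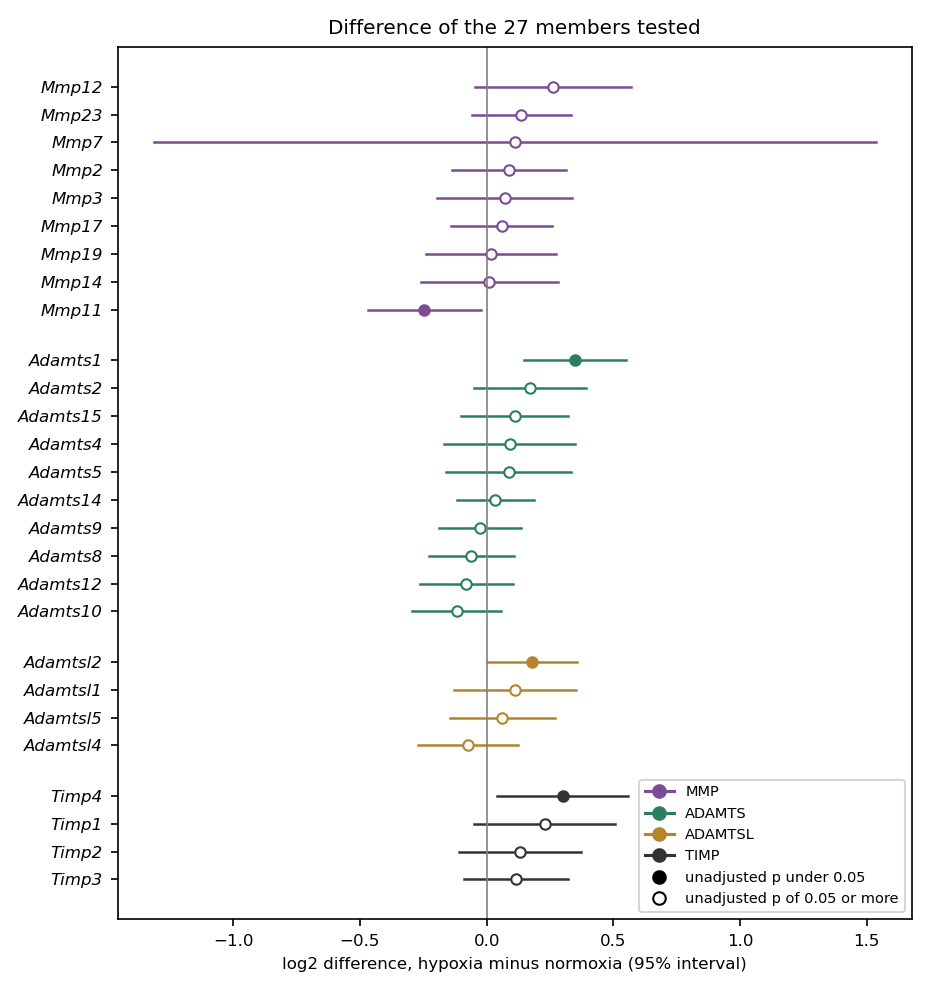
Log2 difference, hypoxia minus normoxia, of the 27 tested members with its 95% interval from limma, grouped as MMP, ADAMTS, ADAMTSL and TIMP from top to bottom; filled points have an unadjusted p under 0.05. Adamts1, Timp4 and Adamtsl2 lie right of 0 and Mmp11 left of it, and the interval of Mmp7 spans -1.31 to 1.54.

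Among the ADAMTS proteinases, Adamts1 had the smallest p of all members. Adamts1, which cleaves versican and aggrecan, ran from -0.12 to 0.20 in hypoxia mice (median 0.07) and from -0.77 to 0.19 in normoxia mice (median -0.33). Of the 10 hypoxia mice, 0 lay below the normoxia mean, and 9 of 12 normoxia mice lay below the lowest hypoxia mouse. Its mean log2 ratio was 0.04 ± 0.13 in hypoxia (SD, n = 10) and -0.31 ± 0.29 in normoxia (SD, n = 12). The difference was 0.35 (95% interval 0.15 to 0.55), a fold of 1.27, with an unadjusted p of 0.00134 and an adjusted p of 0.499 in limma. It was above 0 within each of the 5 slides that carry both groups, from 0.10 to 0.65. The adjusted p ran from 0.13 to 1.00 over the alternatives. The Adamts1 probe lies at chr16:85795044-85795103 on mm9, and no other Adamts1 probe was tested.

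The aggrecanases Adamts4 and Adamts5 did not stand apart in the same way. Adamts4 ran from -0.32 to 0.14 in hypoxia mice (median -0.14) and from -0.60 to 0.82 in normoxia mice (median -0.33). Its difference was 0.09 ± 0.13 (SE), with an unadjusted p of 0.479 in limma. Normoxia replicate 1 gave the value of 0.82, and the next highest normoxia mouse was at 0.16. Of the normoxia mice, 6 lay below the lowest hypoxia mouse and 2 above the highest. The Adamts4 difference without normoxia replicate 1 was not tested. For Adamts5 the values were -1.05 to 0.15 in hypoxia mice (median -0.38) and -0.77 to -0.22 in normoxia mice (median -0.49). In Adamts5 the hypoxia mice therefore spread to both sides of the normoxia mice, with 4 above and 2 below their range. Within the 5 slides with both groups the Adamts5 difference was 0.14, 0.30, -0.64, -0.07 and 0.72. A second Adamts5 probe gave 0.16 ± 0.11 (SE), against 0.09 ± 0.12 for the first, and deviations of the 2 probes from their group means correlated at only 0.06 over 22 mice. The proteoglycanases Adamts15, Adamts9 and Adamts8 differed by 0.11, -0.03 and -0.06. Adamts15 ran from -0.30 to 0.50 in hypoxia mice and from -0.36 to 0.44 in normoxia mice. Adamts9 ran from -0.56 to -0.09 in hypoxia mice and from -0.59 to 0.09 in normoxia mice, and a second Adamts9 probe gave the same difference of -0.03. Adamts8 was above background on 3 of 10 hypoxia arrays and 8 of 12 normoxia arrays.

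The procollagen-processing ADAMTS members lay on the higher side without passing the unadjusted threshold. Adamts2, which removes the amino-terminal propeptide of fibrillar procollagens, ran from -0.63 to -0.03 in hypoxia mice (median -0.36) and from -1.05 to 0.11 in normoxia mice (median -0.49). The difference was 0.17 ± 0.11 (SE), and a second Adamts2 probe, above background on 10 arrays, gave 0.07. Adamts14, its close relative, differed by 0.03 ± 0.07 (SE). Adamts10, known to bind fibrillin, differed by -0.12 ± 0.09 (SE), and Adamts12, which can cleave cartilage oligomeric matrix protein, by -0.08 ± 0.09 (SE). For both, 8 of 10 hypoxia mice lay below the normoxia mean. Most of their hypoxia values were near background, however. Adamts10 was above background on 4 of 10 hypoxia arrays and 8 of 12 normoxia arrays, and Adamts12 on 3 of 10 and 8 of 12.

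The ADAMTS-like proteins bind fibrillin microfibrils and the matrix that stores latent TGF-beta. Adamtsl2 ran from -0.31 to 0.30 in hypoxia mice (median -0.07) and from -0.54 to 0.22 in normoxia mice (median -0.29). It differed by 0.18 ± 0.09 (SE), with an unadjusted p of 0.0483 and an adjusted p of 0.938 in limma, and 8 of 10 hypoxia mice lay above the normoxia mean. Its probe, at chr2:26964005-26964064 on mm9, was above background on 4 hypoxia arrays and 7 normoxia arrays. Without hypoxia replicate 7, the array with the fewest spots above background, Adamtsl2 differed by 0.18 with an unadjusted p of 0.0647. Adamtsl1 and Adamtsl5 differed by 0.11 and 0.06, and Adamtsl4, known from the fibres that hold the lens, by -0.07.

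All 4 inhibitors lay above 0, led by Timp4. Timp4, the TIMP best known from heart and fat, ran from -0.75 to 0.13 in hypoxia mice (median -0.07) and from -1.05 to -0.01 in normoxia mice (median -0.45). In hypoxia 9 of 10 mice lay above the normoxia mean, and the lowest hypoxia mouse sat among the low normoxia mice. The means were -0.14 ± 0.25 in hypoxia (SD, n = 10) and -0.44 ± 0.36 in normoxia (SD, n = 12). The difference was 0.30 (95% interval 0.04 to 0.56), a fold of 1.23, with an unadjusted p of 0.0251 and an adjusted p of 0.873 in limma. Timp4 was higher in hypoxia within each of the 5 slides, by 0.13 to 0.59.

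Timp1, the inducible and secreted inhibitor, ran from -0.40 to 0.86 in hypoxia mice (median 0.13) and from -0.64 to 0.47 in normoxia mice (median -0.10). Its difference was 0.23 ± 0.14 (SE), with an unadjusted p of 0.104 in limma, and 0.15 without hypoxia replicate 6, the highest mouse. Timp2, which with the membrane proteinase Mmp14 activates the precursor of Mmp2, ran from -0.04 to 1.01 in hypoxia mice (median 0.43) and from -0.35 to 0.68 in normoxia mice (median 0.30). Its difference was 0.13 ± 0.12 (SE) by one probe and 0.17 ± 0.12 (SE) by the other, though the mice's deviations on the 2 probes correlated at only 0.10. Without hypoxia replicate 7, the highest mouse at 1.01, the first probe differed by 0.07, and without slide 1, which carries that mouse, by 0.05. Timp3, the matrix-bound TIMP that also blocks ADAMTS aggrecanases, differed by 0.12 ± 0.10 (SE), and 8 of 10 hypoxia mice lay above the normoxia mean.

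**Figure D3:**
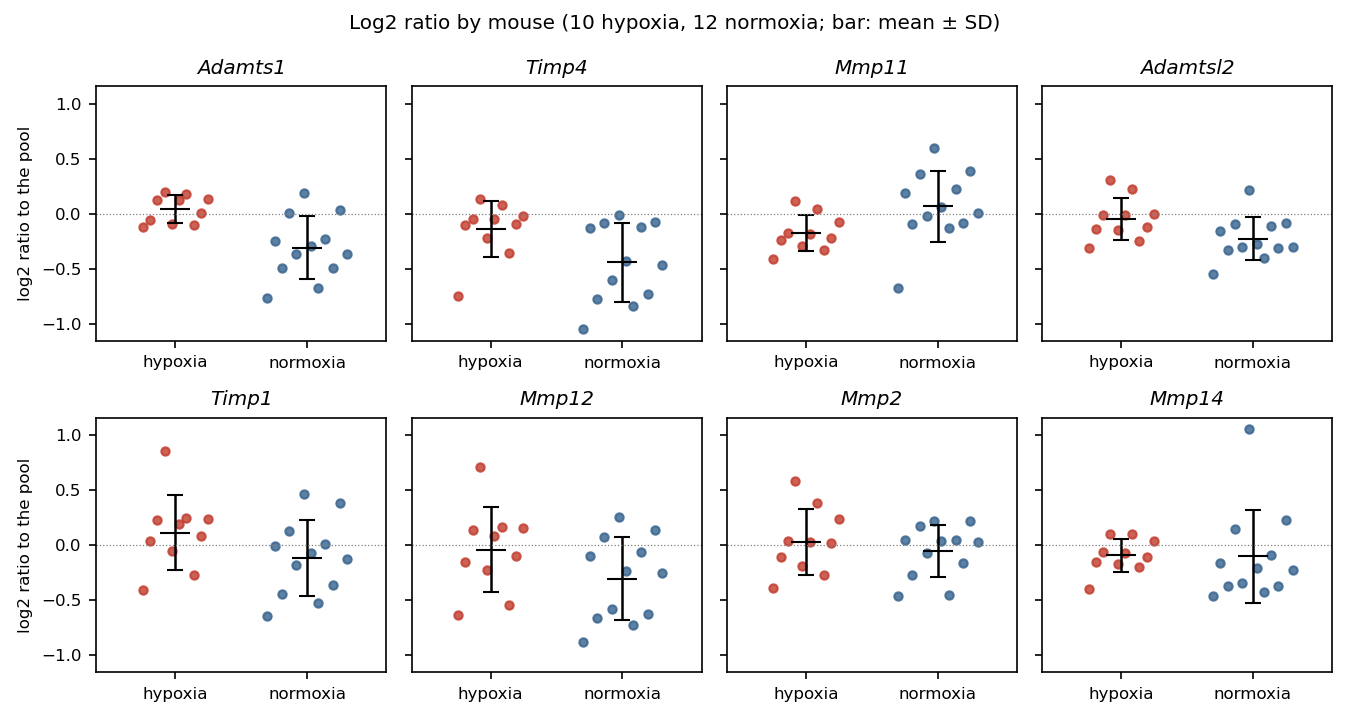
Log2 ratio to the pool of each mouse (points; hypoxia left in red, normoxia right in blue) with mean ± SD for the 4 members with an unadjusted p under 0.05 (top) and for Timp1, Mmp12, Mmp2 and Mmp14 (bottom). The 10 hypoxia mice of Adamts1 lie between -0.12 and 0.20, and 1 normoxia mouse of Mmp14 stands at 1.05.

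The MMPs held the one member that was lower at the unadjusted level. Mmp11, stromelysin 3, ran from -0.41 to 0.12 in hypoxia mice (median -0.20) and from -0.67 to 0.59 in normoxia mice (median 0.03). In hypoxia 9 of 10 mice lay below the normoxia mean, but the lowest mouse of all was a normoxia mouse. The difference was -0.25 (95% interval -0.47 to -0.02), 1.19-fold lower in hypoxia, with an unadjusted p of 0.0331 and an adjusted p of 0.892 in limma. With slide as a fixed block Mmp11 differed by -0.16 (unadjusted p 0.099). A second Mmp11 probe, also on chromosome 10 and above background on 18 arrays, differed by -0.06 ± 0.10 (SE).

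The gelatinase system of Mmp2 and its activator showed no difference beyond the spread of the mice. Mmp2, gelatinase A, ran from -0.39 to 0.58 in hypoxia mice (median 0.03) and from -0.46 to 0.22 in normoxia mice (median 0.03), a difference of 0.09 ± 0.11 (SE). Mmp14, the collagenase anchored on the cell surface, ran from -0.40 to 0.10 in hypoxia mice (median -0.09) and from -0.46 to 1.05 in normoxia mice (median -0.22). Its difference was 0.01 (95% interval -0.26 to 0.28), and 3 normoxia mice lay above all hypoxia mice. Normoxia replicate 6 gave the Mmp14 value of 1.05, and the same mouse was the highest for Mmp17 (0.56) and the lowest for Mmp11 (-0.67). Its array is one of the 3 with the brightest Cy3, and without those 3 arrays Mmp14 differed by 0.11 (unadjusted p 0.24 in limma). Within slides Mmp14 was lower in hypoxia by -0.92 on slide 4, which carries that mouse, and higher by 0.17 to 0.29 on the other 4 slides with both groups. Among the remaining MMPs, Mmp17, tied to the membrane by a lipid anchor, ran from -0.29 to 0.34 in hypoxia mice and from -0.33 to 0.56 in normoxia mice, a difference of 0.06. Mmp19, an MMP first known from inflamed joints, ran from -0.51 to 0.27 in hypoxia mice and from -0.82 to 0.30 in normoxia mice, a difference of 0.02. Mmp23 ran from -0.46 to 0.20 in hypoxia mice and from -0.68 to 0.25 in normoxia mice, a difference of 0.14 with 8 of 10 hypoxia mice above the normoxia mean.

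Of the cluster on chromosome 9, Mmp12 had the largest difference among the 3 tested genes. Mmp12, the elastase of macrophages, ran from -0.64 to 0.71 in hypoxia mice (median -0.01) and from -0.88 to 0.26 in normoxia mice (median -0.24). The difference was 0.26 ± 0.15 (SE), with an unadjusted p of 0.0903 and an adjusted p of 0.952 in limma, and it was above 0 in all 5 slides, from 0.05 to 0.44. Its probe was above background on 7 hypoxia arrays and 8 normoxia arrays. Of the 10 macrophage markers, 8 were higher in hypoxia, against 50.4% of all genes. The complement genes C1qa and C1qb were so at an unadjusted p under 0.05 in limma, by 0.24 and 0.39. The macrophage markers Adgre1 and Itgam were below 0, at -0.09 and -0.10. The macrophage mean ran from -0.32 to 0.27 in hypoxia mice (median -0.09) and from -0.39 to -0.03 in normoxia mice (median -0.19), and its part in the Mmp12 difference was not tested. Mmp3, stromelysin 1, ran from -0.30 to 0.38 in hypoxia mice (median 0.07) and from -0.50 to 0.72 in normoxia mice (median -0.10), a difference of 0.07 ± 0.13 (SE).

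Mmp7 varied between mice more than any other member. This proteinase, matrilysin, is the short MMP without a hemopexin domain and is known from glandular epithelia. Its log2 ratio ran from -3.62 to 0.84 in hypoxia mice (median -1.67) and from -3.84 to 1.52 in normoxia mice (median -1.74), which is a 21.96-fold range within hypoxia and a 41.2-fold range within normoxia. High and low mice occurred in both groups, with 3 of 10 hypoxia mice and 3 of 12 normoxia mice above 0. The group difference was 0.11 (95% interval -1.31 to 1.54), and it was above 0 in 1 of 5 slides. The SD within groups was 1.86, which ranked 2 among the 16577 genes tested and 1 among the 12578 with a symbol. The other members had SDs within groups of 0.15 to 0.38, beside a median of 0.23 over all genes.

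The probes of Mmp7 and Mmp12 are shown because these members varied most between mice, and each was read by 1 tested probe. They lie on the plus strand at chr9:7697641-7697700 (Mmp7) and chr9:7352935-7352994 (Mmp12) of mm9 and start at bases 690 and 735 of the transcripts named in the files.
Mmp7 probe: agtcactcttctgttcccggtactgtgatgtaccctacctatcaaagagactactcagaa
Mmp12 probe: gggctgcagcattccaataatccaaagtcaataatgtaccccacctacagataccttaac
The first probe is free of stop codons in 2 of its 3 forward frames and the second in 1 of 3.

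The spread of Mmp7 was shared by many other genes. Deviations of Mmp7 from the group means correlated above 0.9 over the 22 mice with those of 144 of 12519 genes with a symbol, whereas none of the other 26 members had such a neighbour. The 3 genes most like it, looked up after its values were seen, were Prom1, a protein of membrane protrusions (r = 0.99, rho = 0.98), Dao, the D-amino acid oxidase (r = 0.99, rho = 0.98), and Cdh16, a cadherin known from kidney tubules (r = 0.99, rho = 0.99). Prom1 ran from -2.77 to 1.33 in hypoxia mice and from -3.12 to 1.85 in normoxia mice. Without the 2 mice farthest from the median, r stayed between 0.98 and 0.99 for these genes, and after each slide and group was centred it was 0.99 for all of them. Of the 10 testis and epididymis markers, Crisp1, Lcn5, Lcn8, Defb20, Adam7 and Tnp2 were below the limit for testing, so they were not compared with Mmp7. The other 4 correlated with Mmp7 less closely, at 0.62 for Smcp, 0.58 for Prm1, 0.64 for Prm2 and 0.64 for Tnp1. These 4 values do not speak for the markers below the limit. All these correlations describe the same libraries and carry no test. Those of Prom1, Dao and Cdh16 were picked as the highest, while the markers came from a fixed list.

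**Figure D4:**
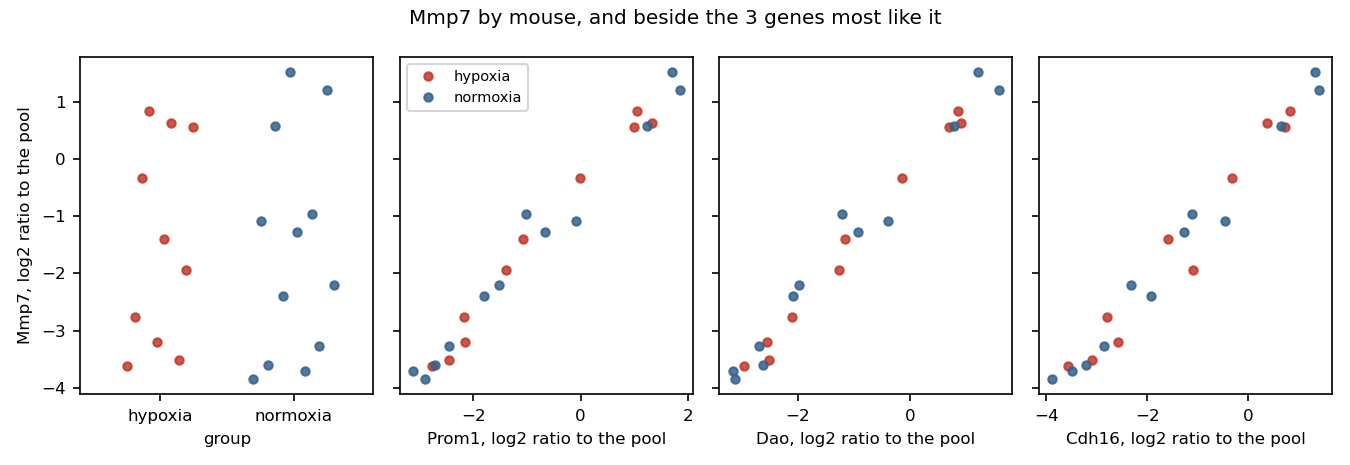
Log2 ratio of Mmp7 by mouse (left; hypoxia in red, normoxia in blue) and against the log2 ratios of Prom1, Dao and Cdh16 in the same mice. Both groups span the range from about the lowest to the highest values, and the points follow one line in each panel.

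For the 3 members with the smallest p, no gene was as close. Adamts1 was most like 0610009L18Rik (r = 0.72), Sec61a2, a subunit of the protein channel of the endoplasmic reticulum (0.71), and Ppib, a collagen-folding isomerase (0.71). Timp4 was most like Eif4ebp3 (0.82), the small GTPase Rras (0.80) and Smoc1, a SPARC-related matrix protein (0.79). Mmp11 was most like Tomm40l (0.82), Txndc5 (0.80) and Zfyve26 (0.79), but its rank correlations with them were 0.48 to 0.58. The highest r was picked from 12519 genes over 22 mice and is given without a test.

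Relations between pairs that act together were computed for 6 pairs on deviations from the group means over 22 mice. None held after adjustment over the 6 by permutation test. Mmp2 and Mmp14 gave r = -0.05 (adjusted p 0.829) and rho = 0.22 (adjusted p 0.325), Mmp14 and Timp2 r = 0.21 (adjusted p 0.483), and Mmp2 and Timp2 r = 0.30 (adjusted p 0.342). Without the 2 mice farthest from the median these 3 values were 0.42 each. Adamts1 and Adamts4 gave r = 0.34 (raw p 0.125, adjusted p 0.342) and rho = 0.34 (adjusted p 0.325), and within slide and group r was 0.62 (adjusted p 0.41). Mmp12 and the macrophage mean gave r = 0.43 (raw p 0.0477, adjusted p 0.286), 0.14 without the 2 farthest mice, and 0.52 within slide and group (adjusted p 0.727). The values within slide and group were tested by an exact permutation test over the 2048 ways of swapping the 2 mice in each of 11 cells of slide and group. Mmp3 and Timp1 gave r = -0.16 (adjusted p 0.581).

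Genes that act with or on these proteinases are given by list, beside the 50.4% of all genes above 0, and none of the 7 lists described held a gene past the adjusted threshold. The mixed list of other inhibitors and scavengers had 4 of 7 above 0 (median 0.17). These were Cst3 at 0.20, Pcolce at 0.19, Sdc1 at 0.20 and Sdc4 at 0.17. They are not known mainly as inhibitors of metalloproteinases, so the list median does not describe such inhibitors. Reck, Spock2 and the clearance receptor Lrp1 were below 0, at -0.05, -0.02 and -0.01. Activators and inducers of metalloproteinases had 11 of 14 above 0 (median 0.07), among them the inducer Bsg at 0.14, Pcsk6 at 0.04 and the collagen receptor Ddr2 at 0.003. ADAM and astacin proteinases had 5 of 9 above 0 (median 0.04), with Adam9 at 0.04, Adam15 at -0.001 and the procollagen C-proteinase Bmp1 at -0.01. The list of cathepsins and other matrix proteinases had 14 of 16 above 0 (median 0.12), with Ctsl at 0.16, Ctsd at 0.14 and Ctsb at -0.03. Its genes other than cathepsins were Lgmn at 0.17, Fap at -0.19, Dpp4 at 0.06, Htra1 at 0.08 and Htra3 at 0.15.

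Among substrates, collagen genes had 8 of 12 above 0 (median 0.13). In limma 2 of them, both of basement membrane, had an unadjusted p under 0.05. These were Col4a1 at 0.31 ± 0.13 (SE) and Col18a1, the source of endostatin, at 0.20 ± 0.08 (SE). Their adjusted p was 0.865 and 0.83 in limma. Other basement membrane genes went either way. Col4a2, Nid1 and Nid2 stood at 0.22, 0.17 and 0.17, and Col15a1 and Hspg2 at -0.23 and -0.20. Col1a2, Col3a1 and Col6a1 differed by 0.13, -2.5e-05 and -0.11. Proteoglycans and glycoproteins had 16 of 19 above 0 (median 0.13). Fmod, a collagen-binding proteoglycan, differed by 0.35 ± 0.14 (SE) with 9 of 10 hypoxia mice above the normoxia mean, while Dcn, Fn1 and Sparc differed by 0.05, 0.12 and 0.16. Fibrillin microfibril partners had 12 of 16 above 0 (median 0.07), with the collagen cross-linking enzyme Lox at 0.31 ± 0.12 (SE) and Fbln2, Ltbp4 and Ltbp3 at 0.12, 0.06 and -0.04. These lists share mice and arrays with the members, so their counts are no separate evidence of direction.

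**Figure D5:**
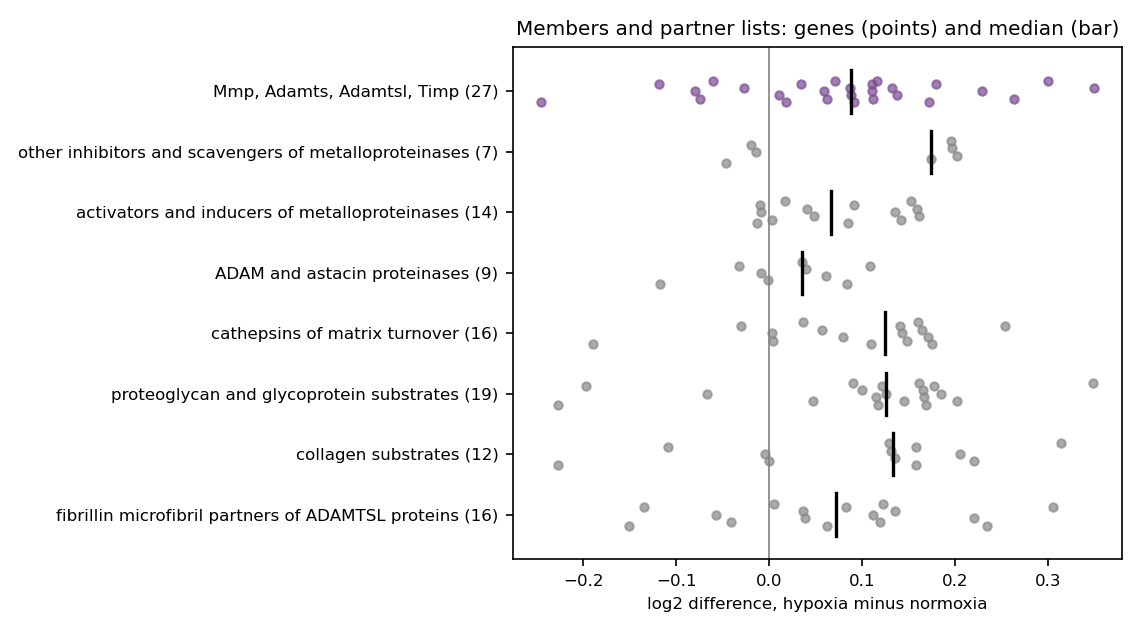
Log2 difference, hypoxia minus normoxia, of each tested gene (points) with the list median (bar) for the members, in purple at the top, and the 7 partner lists, with the number of tested genes in brackets. Every median lies between 0.03 and 0.18.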

How the data were processed

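Scanner files of 22 2-colour Agilent arrays were read, which Agilent Feature Extraction 10.7.3.1 wrote, as the headers state. Deposited mean signals and local backgrounds are intensity values as scanned. Per the file headers, the deposited log10 ratio carries the scanner software's own correction. A deposited series table holds log2 values, and its normalization is not stated by any source read here. Signals were corrected by normexp (offset 50) and loess in limma 3.58.1 (R 4.3.3), without outlier-flagged spots. Genes were tested on the brightest probe well above background on at least 10 arrays, with group as the only term. P-values were adjusted over 16577 genes. In simulated data of 16577 genes, 7 of 50 genes changed by 0.25 log2 and 42 of 50 changed by 0.5 were called. The simulated noise was normal and independent between genes, and 50 genes each were also changed by 1 and 1.5 log2. Changing many genes at once eases the adjusted threshold, so these counts do not give the sensitivity for a lone changed gene. Relations used two-sided permutation tests with 100000 resamples. The number of arrays limits the precision. Members, lists and the rule for named genes (every member; list genes at p under 0.05, otherwise the 3 brightest; the 3 genes most like each of the 3 members with the smallest p) were chosen with earlier results of these data known. Some further list genes were named to show what a list holds. Exon or UTR under each probe is not given. Alternatives were other normalizations, filters, probe rules, slide and replicate blocks, and arrays left out. A list of the plasminogen system was computed and is not reported here.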

Additional observations from a re-analysis of the deposited data

Results flagged for a closer look

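Of the 27 tested members, 2 had 1 hypoxia mouse whose gap to the nearest of the other 9 took up more than the share of the range that Dixon's test allows. Timp1 stood at 0.86 in hypoxia replicate 6, while the other 9 hypoxia mice ran from -0.40 to 0.24. Adamts8 stood at 0.37 in hypoxia replicate 3, while the other 9 ran from -0.14 to 0.13. Hypoxia replicate 3 is the array with the most spots above background. Chance flags about 1 in 20 groups, which is 1.35 of 27. The 27 groups searched were the hypoxia groups, so the normoxia mice were not screened in this way. In normoxia, Mmp14 stood at 1.05 in replicate 6, and the next highest mouse was at 0.23. Adamts4 stood at 0.82 in normoxia replicate 1, and the next highest normoxia mouse was at 0.16.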

How the results depend on the processing

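No member passed the adjusted threshold under any alternative tried. Of 416 member differences recomputed, 391 kept their direction, and 18 of 27 members never reversed. These counts are not independent checks, and no count over all genes is given beside them. Slide 2 held only normoxia mice and the other slides were balanced. Leaving slide 2 out, blocking on slide and averaging within-slide differences therefore had to give the same difference. Other filters, probe rules and keeping outlier spots returned the main value for some members, such as Adamts1. Centring each array on its median in place of loess moved the median of all genes to -0.21, so those values are given relative to it. Members at an unadjusted p under 0.05 numbered 2 with Feature Extraction's own log ratio (Adamts1 and Timp4), 0 after median centring (tested against 0), 0 in the deposited value table, 2 with slide as a fixed block and 2 without slide 2 (Adamts1 and Timp4 both times). Over all 16577 genes that level was reached by 960, 72, 159 (of 16563), 937 and 829 genes, in the same order of settings. Members above 0 were 34 of 51 with no filter, against 16522 of 34740 over all genes. Among probes above background on all arrays they were 8 of 9, against 3210 of 6457. Signs reversed for 9 members under at least 1 alternative. After median centring Adamts10 was 0.0245, Adamts12 0.14, Adamts8 0.0628 and Timp2 -0.0088. In the deposited table Adamts12 was 0.0351, Adamts14 -0.0427, Adamts8 0.0516, Mmp19 -0.0681 and Timp2 -0.0078. Adamts8 was 0.26 (unadjusted p 0.0115 in limma) without a filter, where another probe, left out by the filter, stood for it. Adamts9 was 0.0036 with slide as a block, without slide 2 and as the mean of within-slide differences, and Mmp7 was -0.32 under all 3. Mmp7 was -0.0608 with Feature Extraction's ratio and -0.12 without hypoxia replicate 7. Mmp14 was -0.0236 without slide 1 and -0.011 without hypoxia replicate 7. Mmp19 was -0.0148 with scale normalization, -0.0073 without hypoxia replicate 7 and -0.0614 without the 3 arrays with the brightest Cy3. The causes were not tested. Timp1 without hypoxia replicate 6 (0.15) and Adamts8 without replicate 3 (-0.09) were added after seeing the data.

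No pairing of mice by replicate number was visible. Deviations of same-numbered mice correlated at -0.47 to 0.25 over 10 pairs, and 0 of 10 correlated best with their own number. Most same-numbered mice lay on different slides, so the check cannot exclude a pairing. With the replicate block 3 members had an unadjusted p under 0.05 in limma, against 565 of all 16577 genes. With that block 19 members were above 0, against 8576 of all genes, Mmp14 was -0.0193 and Mmp7 -0.0388.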
